A study of Mus musculus with 7 samples.

Results

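The long-chain acyl-CoA synthetase genes were described in the liver RNA of mice with a deletion of *B4galt1* in hepatocytes and of their controls. The 6 genes were taken by name, *Acsl1*, *Acsl3*, *Acsl4*, *Acsl5*, *Acsl6* and *Acsbg1*, and all 6 were found among the 23347 genes of the count table. Low counts removed *Acsl6*, so that 5 of the 6 were tested. RNA was sequenced from 7 livers, 1 library per mouse. The 4 control mice, labelled WT and called *B4galt1* flox/flox in the study, carry *B4galt1* flanked by recombination sites and no Cre. The 3 mice labelled B4-HKO, *B4galt1* hep-/- in the study, carry the same floxed gene with a Cre recombinase driven by the albumin promoter, which is active in hepatocytes. The controls were littermates, and all mice were young adult males on a C57BL/6 background. Every mouse of both groups had eaten the CDAHFD, a choline-deficient high-fat diet that brings on steatohepatitis, for 15 weeks, and no library from chow-fed mice was analysed here.

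Long-chain acyl-CoA synthetases join a fatty acid to coenzyme A with the energy of ATP, the step that every fatty acid must pass before it is oxidized, stored as triglyceride or built into a phospholipid. The enzymes differ in their place in the cell and in the fatty acids they prefer. ACSL1 is the main form of liver and fat and serves both oxidation and triglyceride synthesis. ACSL5 lies in the endoplasmic reticulum and mitochondria of liver and intestine. ACSL3 sits on the endoplasmic reticulum and on lipid droplets. ACSL4 prefers arachidonic acid and other polyunsaturated fatty acids, and by supplying them to membrane phospholipids it makes cells prone to ferroptosis, the iron-dependent form of cell death that follows lipid peroxidation. ACSL6 is known from brain, and ACSBG1, a bubblegum-type synthetase, from brain, adrenal gland and testis. *Acsl1* and *Acsl5* are among the genes that PPARα, a nuclear receptor for fatty acids, can switch on, and the study's question for *Acsl4* concerned the related receptor PPARγ.

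Total counts ranged from 37838654 to 39668509 in the flox/flox libraries and from 30608271 to 34586588 in the hep-/- libraries. Mitochondrially encoded transcripts took between 3.88% and 8.0% of counts in the former and between 14.4% and 22.6% in the latter. Counts were put on a common scale by TMM and are given as CPM, the share of a library's counts on a fixed scale. On this scale the groups overlapped for *B4galt1*. It lay between 48.7 and 53.0 CPM in the flox/flox livers and at 28.4, 23.9 and 53.7 CPM in hep-/- replicates 1, 2 and 3, so that for this gene replicate 3 goes against its label. The mitochondrial share of replicate 3, 14.4%, lay above that of every flox/flox library, and gene counts cannot settle whether the label is right. For *B4galt1* edgeR gave a log2 fold change of -0.52 (adjusted p = 0.181) with all mice and -0.96 (adjusted p = 0.0139) without that replicate. In the deposited FPKM values, which are not TMM-scaled, replicate 3 had 11.9, just below the flox/flox range of 12.19 to 14.04, and limma on log2(FPKM + 1) gave -0.67, called with the filter (adjusted p = 0.0389) and not without it (adjusted p = 0.108). Of the 12 alternatives with all mice, 2 called *B4galt1*, both on filtered FPKM values. Fold changes without that replicate are given for the 5 tested members and for some of the other genes, and hep-/- means the libraries labelled so. Hepatocyte markers were abundant in every liver, and their sum ranged from 95158 to 136673 CPM in flox/flox livers and from 101522 to 162490 CPM in hep-/- livers. Macrophage markers differed between the groups. Of 10 macrophage genes 6 were called lower in hep-/- livers, beside 7.83% of all genes tested, and their summed level was 1536 to 3504 CPM in flox/flox livers against 734 to 835 CPM in hep-/- livers. No macrophage marker was at 0 in every mouse. Marker sums of stellate cells, endothelium, bile ducts, lymphocytes, neutrophils and red cells overlapped between the groups. In whole liver, fewer cells of a type and less RNA per cell cannot be told apart.

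Compared per kilobase of gene length, which is the scale on which different genes can be set side by side, the family had the same order in all 7 livers. *Acsl1* was the most abundant, with 102 ± 1.15 CPM per kilobase (SD, n = 4) in flox/flox livers and 68.0 ± 17.3 CPM per kilobase (SD, n = 3) in hep-/- livers. *Acsl5* followed with 67.7 ± 10.8 and 39.9 ± 14.5 CPM per kilobase. The ranges of these neighbours were apart in flox/flox livers, whereas in hep-/- livers the lowest *Acsl1* value, 50.2, lay below the highest *Acsl5* value, 56.2. *Acsl4* came next with 19.7 ± 2.88 and 8.92 ± 3.18 CPM per kilobase. *Acsl3* had 3.76 ± 1.01 and 4.92 ± 1.27 CPM per kilobase, and the gap between *Acsl4* and *Acsl3* was narrowest in hep-/- replicate 2, at 5.46 against 4.61. *Acsbg1* was rare, with 0.163 ± 0.0723 and 0.470 ± 0.193 CPM per kilobase. *Acsl6* gave 1 count in flox/flox replicate 1 and 0 counts in the other 6 libraries, where 0 counts allow at most 0.0703 to 0.0987 CPM, so no direction can be given for it.

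*Acsl4* fell in hep-/- livers, and it was the sole member called. Its level was 95.8, 132, 105 and 103 CPM in flox/flox replicates 1 to 4 and 53.2, 30.3 and 64.9 CPM in hep-/- replicates 1 to 3. Each hep-/- liver lay below each flox/flox liver, with replicate 2 the lowest and replicate 3, the one with *B4galt1* at 53.7 CPM, the highest of its group. The mean was 109 ± 16.0 CPM (SD, n = 4) in flox/flox and 49.5 ± 17.6 CPM (SD, n = 3) in hep-/- livers, 0.453 of the control level. edgeR gave a log2 fold change of -1.14 (95% interval -1.71 to -0.58, adjusted p = 0.0153 with Benjamini-Hochberg adjustment over all 15179 genes tested). Calls needed an adjusted p under 0.05 together with a log2 fold change beyond 0.58 in either direction. Without hep-/- replicate 3 the log2 fold change was -1.40 (adjusted p = 0.0130 from the same edgeR test). Of all genes tested, 4.03% had a log2 fold change below that of *Acsl4*. With the 13 mitochondrially encoded genes left out before scaling, the log2 fold change of *Acsl4* was -1.15. The difference is larger than the spread between mice, and stood beside the lower macrophage markers given above. Among flox/flox livers the highest macrophage sum, 3504 CPM in replicate 3, went with 105 CPM of *Acsl4*, and the highest *Acsl4*, 132 CPM in replicate 2, with a macrophage sum of 2120 CPM. The part of macrophages in the *Acsl4* difference was not tested.

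**Figure D1:**
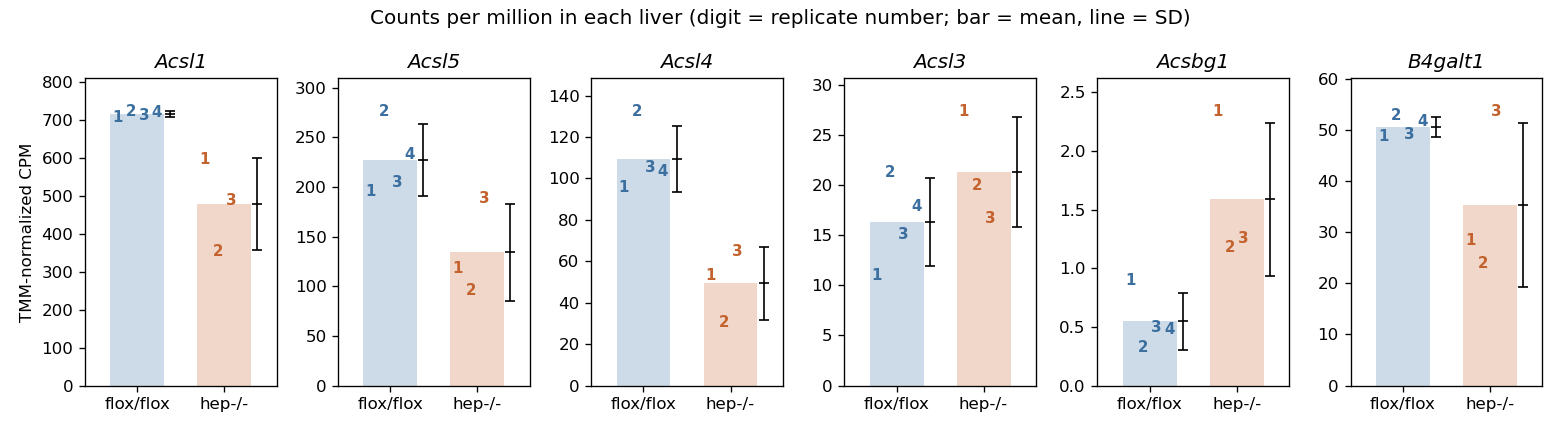
TMM-normalized CPM (vertical axes, linear from 0) of 5 members and of *B4galt1* in flox/flox (blue) and hep-/- (orange) livers. Digits mark each liver by its replicate number, bars are group means and black lines at their right are SDs. The groups do not overlap for *Acsl1*, *Acsl5*, *Acsl4* and *Acsbg1*, and they overlap for *Acsl3* and *B4galt1*.

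**Figure D2:**
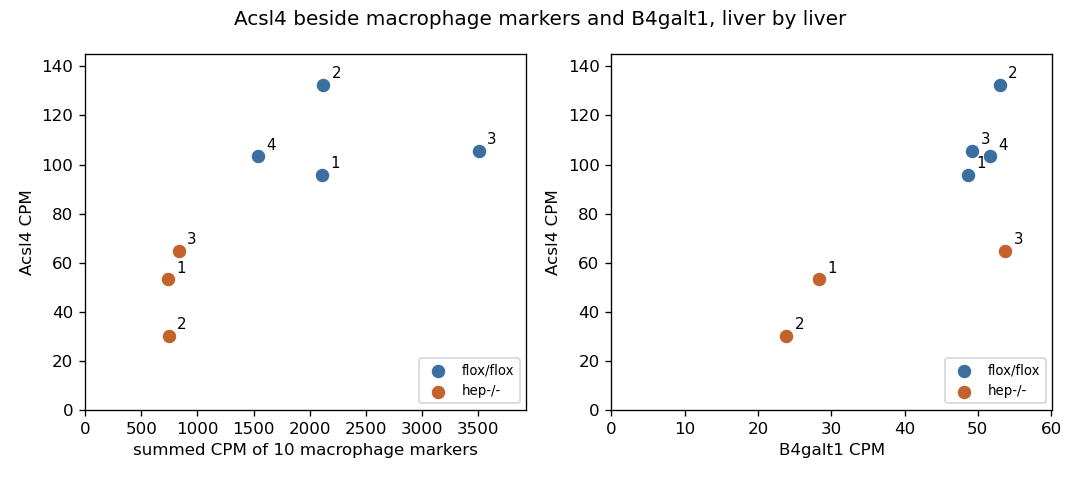
*Acsl4* CPM (vertical axis) against the summed CPM of 10 macrophage markers (left) and against *B4galt1* CPM (right), 1 point per liver with its replicate number, flox/flox in blue and hep-/- in orange. hep-/- replicate 3 has *B4galt1* at 53.7 CPM beside *Acsl4* at 64.9 CPM, and the 3 hep-/- livers lie within 734 to 835 CPM of macrophage markers while *Acsl4* runs from 30.3 to 64.9 CPM.

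*Acsl5* and *Acsl1*, the more abundant members, were lower in every hep-/- liver than in any flox/flox liver but did not pass the adjusted threshold with edgeR. *Acsl5* had 196, 276, 205 and 233 CPM in flox/flox replicates 1 to 4 and 118, 95.4 and 189 CPM in hep-/- replicates 1 to 3. The gap between the groups was small, with hep-/- replicate 3 at 189 CPM just below flox/flox replicate 1 at 196 CPM. Its log2 fold change was -0.76 (95% interval -1.32 to -0.21, edgeR adjusted p = 0.0617). Without hep-/- replicate 3 it was -1.10 (edgeR adjusted p = 0.0167), which is a call, and DESeq2 called it over all mice (log2 fold change -0.76, adjusted p = 0.0252). *Acsl1* had a different spread. Its 4 flox/flox values lay at 706, 723, 712 and 721 CPM, a coefficient of variation of 1.13%, while the 3 hep-/- values were 596, 353 and 487 CPM, a coefficient of variation of 25.5%. Its log2 fold change was -0.58 (95% interval -1.06 to -0.10, edgeR adjusted p = 0.0925), and without hep-/- replicate 3 it was -0.60 (edgeR adjusted p = 0.128). hep-/- replicate 2 had the lowest value of all livers for *Acsl1*, *Acsl4* and *Acsl5* alike.

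*Acsl3* and *Acsbg1* did not follow. *Acsl3* had 10.99, 21.3, 15.1 and 17.9 CPM in flox/flox replicates 1 to 4 and 27.4, 20.03 and 16.6 CPM in hep-/- replicates 1 to 3. These ranges overlapped, and the log2 fold change of 0.39 had an interval from -0.16 to 0.94 (edgeR adjusted p = 0.305), so neither no change nor a rise of nearly 2-fold can be set aside. It was 0.53 without hep-/- replicate 3 (edgeR adjusted p = 0.210). *Acsbg1* rested on 39, 13, 21 and 17 counts in flox/flox replicates 1 to 4 and on 72, 39 and 38 counts in hep-/- replicates 1 to 3. In CPM these were 0.897, 0.326, 0.492 and 0.480 against 2.34, 1.18 and 1.25, every hep-/- liver above every flox/flox liver. The log2 fold change was 1.52 (95% interval 0.44 to 2.61) and missed the threshold (edgeR adjusted p = 0.0573). DESeq2 called it at 1.53 (adjusted p = 0.0174). Without hep-/- replicate 3 it was 1.66 (edgeR adjusted p = 0.0695).

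Over the family, 1 of the 5 tested members was called, beside 15.8% of all genes tested. Genes called lower were 7.83% of all genes and genes called higher 8%. The values of 4 of the 5 members did not overlap between the groups, 3 of them lower and 1 higher in hep-/- livers. Over all genes tested 28.6% did not overlap, 15% lower and 13.6% higher. The members had a median log2 fold change of -0.58, as against 0.02 for all genes tested. Without hep-/- replicate 3 the calls were 2 of 5, *Acsl4* and *Acsl5*, 40% beside 13.8% of all genes. Without flox/flox replicate 1 they were *Acsl4* and *Acsbg1*, 40% beside 16.1%. DESeq2, which tested all 6, called 3 members, *Acsl4*, *Acsl5* and *Acsbg1*, 50% beside 14.2% of all genes in that test.

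**Figure D3:**
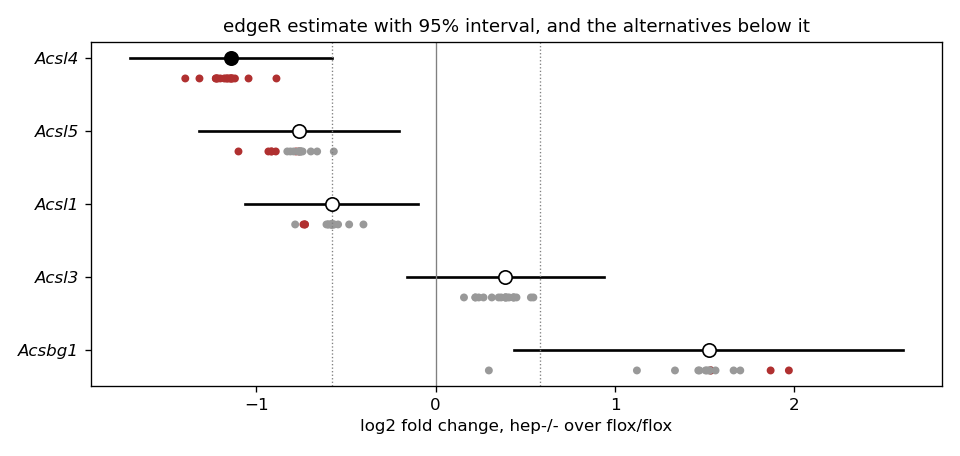
Log2 fold change of hep-/- over flox/flox livers (horizontal axis) for the 5 tested members. Circles with black lines are the edgeR estimates with 95% intervals, filled where called, and the small points below are the alternative analyses, red where called and grey where not; dotted lines mark the fold change threshold. *Acsl4* alone is filled, and its alternatives run from -1.40 to -0.89.

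Whether *Acsl4* changed by another amount than its relatives was asked through the log2 ratio of their counts within each liver, which no scaling of the libraries can alter. The ratio of *Acsl4* to *Acsl1* was -2.72 ± 0.19 (SD, n = 4) in flox/flox and -3.31 ± 0.35 (SD, n = 3) in hep-/- livers, a difference of -0.59. The groups did not overlap, although hep-/- replicate 3 at -2.91 lay close to flox/flox replicate 1 at -2.88. The exact permutation p, two-sided, was 0.0286, the smallest that 4 mice against 3 allow, and 0.0381 with Benjamini-Hochberg adjustment over 4 ratios. The ratio to *Acsl3* differed by -1.60 and the ratio to *Acsbg1* by -2.76, both with the same exact p. For *Acsbg1* that p was fixed by the levels, since every hep-/- liver was lower in *Acsl4* and higher in *Acsbg1*. It therefore adds no evidence. Against *Acsl5* the difference was -0.39, and hep-/- replicate 1 at -1.15 lay among the flox/flox values, which ran from -1.17 to -0.96 (exact permutation test, p = 0.0571, also after adjustment). With hep-/- replicate 3 left out, the differences were -0.79 against *Acsl1*, -1.997 against *Acsl3*, -0.35 against *Acsl5* and -3.13 against *Acsbg1*, where 4 mice against 2 cannot pass the threshold. On log2(FPKM + 1) none of the 4 differences passed after adjustment, and that against *Acsbg1* was -1.52. The 4 ratios share the *Acsl4* counts and are not independent of each other.

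The summed level of the 6 genes was 179, 214, 185 and 195 CPM per kilobase in flox/flox replicates 1 to 4 and 136, 88.9 and 141 in hep-/- replicates 1 to 3, so the whole pool of family transcripts was smaller in each hep-/- liver. *Acsl1* held 52.9% ± 3.55 (SD, n = 4) of it in flox/flox and 55.8% ± 6.58 (SD, n = 3) in hep-/- livers, and *Acsl5* held 34.9% ± 2.71 and 32.5% ± 7.03, with overlap for both. The share of *Acsl4* was 10.2% ± 0.732 in flox/flox livers, between 9.57% and 11.2%, and 7.15% ± 1.08 in hep-/- livers, between 6.13% and 8.29%, without overlap. *Acsl3* made up 1.93% ± 0.380 in flox/flox and 4.18% ± 1.30 in hep-/- livers, also without overlap. These shares describe the mixture and were not tested.

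**Figure D4:**
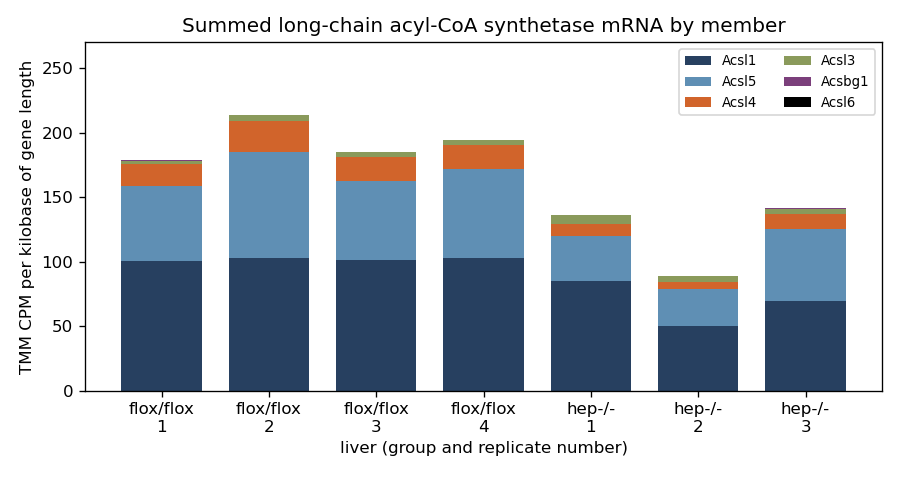
TMM-normalized CPM per kilobase of gene length (vertical axis, linear from 0) stacked by member for each of the 7 livers, 4 flox/flox and 3 hep-/-. The flox/flox stacks reach 179 to 214 and the hep-/- stacks 88.9 to 141; *Acsl1* and *Acsl5* fill most of each stack, and *Acsbg1* and *Acsl6* are too rare to see.

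The sequences before the start sites of the 3 genes that were lower in every hep-/- liver, and of *Acsl3*, which was not, are shown because the study's question for *Acsl4* concerned a nuclear receptor, which acts on promoters. They are RefSeq promoter windows of GRCm38.p6, 250 bases before to 50 after a start, 5′ to 3′ on the gene's strand. RefSeq gave 9 windows for the 6 members, 2 of them for *Acsl1* and 3 for *Acsl6*. Capitals mark matches, on either strand, to AGGTCA, the half-site of PPARs and other nuclear receptors, to the PPAR response element, which is a pair of that half-site parted by any base, to GGGCGG, the GC box, to CCAAT, the CCAAT box, to TATAAA, the TATA box, to TGACGTC, most of the palindromic cAMP response element, to TCACNCCAC, a sterol regulatory element, or to CACGTG, the E-box.
Acsl4, chrX:142390486-142390785, - strand: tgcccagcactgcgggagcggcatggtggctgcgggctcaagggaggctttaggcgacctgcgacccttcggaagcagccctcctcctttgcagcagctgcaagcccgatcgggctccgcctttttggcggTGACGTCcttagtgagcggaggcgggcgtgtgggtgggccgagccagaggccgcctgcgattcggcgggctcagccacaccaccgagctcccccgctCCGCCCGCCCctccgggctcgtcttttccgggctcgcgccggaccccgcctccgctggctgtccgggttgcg
Acsl5, chr19:55253119-55253418, + strand: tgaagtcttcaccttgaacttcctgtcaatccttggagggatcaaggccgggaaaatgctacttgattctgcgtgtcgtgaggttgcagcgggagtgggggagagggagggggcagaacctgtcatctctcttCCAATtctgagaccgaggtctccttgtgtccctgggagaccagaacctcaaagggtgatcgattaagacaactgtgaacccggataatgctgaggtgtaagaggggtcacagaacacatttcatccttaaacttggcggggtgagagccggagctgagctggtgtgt
Acsl1 first start, chr8:46470787-46471086, + strand: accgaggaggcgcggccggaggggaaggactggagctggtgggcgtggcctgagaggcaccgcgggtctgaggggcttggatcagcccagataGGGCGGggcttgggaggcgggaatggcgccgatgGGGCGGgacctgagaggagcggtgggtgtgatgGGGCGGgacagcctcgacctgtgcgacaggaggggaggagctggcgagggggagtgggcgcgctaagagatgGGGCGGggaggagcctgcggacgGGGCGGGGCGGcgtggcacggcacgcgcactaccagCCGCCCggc
Acsl1 second start, chr8:46490716-46491015, + strand: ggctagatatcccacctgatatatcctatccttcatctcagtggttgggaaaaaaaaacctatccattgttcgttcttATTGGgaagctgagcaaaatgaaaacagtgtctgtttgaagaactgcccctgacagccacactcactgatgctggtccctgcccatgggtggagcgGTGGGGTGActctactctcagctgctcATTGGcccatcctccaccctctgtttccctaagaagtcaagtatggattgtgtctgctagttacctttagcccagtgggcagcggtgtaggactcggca
Acsl3, chr1:78657575-78657874, + strand: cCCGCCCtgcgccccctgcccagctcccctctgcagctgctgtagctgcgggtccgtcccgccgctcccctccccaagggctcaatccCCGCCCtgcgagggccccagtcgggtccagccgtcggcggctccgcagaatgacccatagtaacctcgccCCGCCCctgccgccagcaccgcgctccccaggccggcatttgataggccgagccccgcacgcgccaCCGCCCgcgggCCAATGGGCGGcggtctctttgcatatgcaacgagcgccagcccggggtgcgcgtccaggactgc
The *Acsl4* window held TGACGTC from position -119, counted with 0 at the start, and a pair of overlapping GC boxes from -22 and -18. TGACGTC occurred in 3.21% of all 32851 windows of this length, and GC boxes in 35.7%. The CCAAT box, in 37.4% of all windows, was found among the printed windows for *Acsl5*, *Acsl3* and the second start of *Acsl1*, whose window also held the sterol regulatory element found in 1.24%. The TATA box and the E-box, in 13.6% and 7.15% of all windows, were in none of the 9 member windows. The GC content of the *Acsl4* window was 71.7%, as against 53% for *Acsl5*, 74% and 50% for the starts of *Acsl1*, 74% for *Acsl3* and a median of 52.7% over all windows. None of the 9 windows matched the PPAR response element, which 0.0396% of all windows did, and among the members AGGTCA was matched in *Acsl6* alone, beside 16.3% of all windows. These letters describe the window and do not show whether a factor bound there or elsewhere.

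Other enzymes that load acyl groups onto coenzyme A were measured from a list of 19 short-, medium- and very-long-chain synthetases, of which 15 were tested. In hep-/- livers 6 fell and 1 rose, 46.7% beside 15.8% of all genes called, with a median of -0.57 on the log2 scale over the 15, beside 0.02 for all genes. *Slc27a4*, a fatty acid transport protein with very-long-chain synthetase activity, had 33.0, 29.4, 32.6 and 24.2 CPM in flox/flox replicates 1 to 4 and 12.3, 12.6 and 18.3 CPM in hep-/- replicates 1 to 3 (log2 fold change -1.05, edgeR adjusted p = 0.00978). *Acss2*, which activates acetate in the cytosol, was at 46.1 ± 3.598 CPM in the 4 flox/flox and 23.7 ± 4.42 CPM in the 3 hep-/- livers (mean ± SD), a log2 fold change of -0.96 (edgeR adjusted p = 0.00890). Both stayed called whichever of the 7 mice was omitted. *Slc27a3*, another member of the transport protein family, was rare and higher in hep-/- livers, at 1.601 ± 0.438 and 4.02 ± 0.853 CPM (log2 fold change 1.33, edgeR adjusted p = 0.0258), and stayed called under 3 of the 7 omissions. The counts of called genes rested on particular mice, in these lists and over the whole table. Over the 7 lists of related genes described here and below, 22 genes were called with all mice, 20.2% beside 15.8% of all genes. Without flox/flox replicate 2 they were 7, 6.54% beside 5.9% of all genes, and without flox/flox replicate 3 they were 14, 13% beside 9.36%. Omitting flox/flox replicate 4 left 14, 13% beside 10.3%, and omitting hep-/- replicate 2 left 12, 11% beside 7.76%. For the other synthetases alone, 2 were called without flox/flox replicate 2, 13.3% beside 5.9% of all genes.

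Acyl-CoA thioesterases, which undo the reaction by splitting acyl-CoA, gave no call with edgeR among 13 tested, beside 15.8% of all genes, and 4 of them, 30.8%, had an unadjusted p under 0.05, beside 32.9% of all genes. Other settings called 1 or 2. DESeq2 called 2, 13.3% beside 14.2% of all genes, and voom 1, 7.69% beside 19.7%. On filtered log2(FPKM + 1) limma called 2, 16.7% beside 21%. With at least 1 count in any mouse edgeR called 2, 13.3% beside 12.3%, and with at least 10 in every mouse 1, 7.69% beside 17.8%. It called 1, 7.69%, when flox/flox replicate 1 or any of the 3 hep-/- replicates was left out, beside 7.76% to 16.1% of all genes. The median log2 fold change of the 13 was -0.36. Among 24 tested genes that take up or carry acyl-CoA, for import into mitochondria or peroxisomes or for esterification, 5 fell and 1 rose, 25% beside 15.8% of all genes. *Soat1*, which esterifies cholesterol with acyl-CoA, fell from 27.2, 28.7, 58.8 and 28 CPM in flox/flox replicates 1 to 4 to 16.0, 12.7 and 15.6 CPM in hep-/- replicates 1 to 3 (log2 fold change -1.27, edgeR adjusted p = 0.0150). *Abcd3*, which carries acyl-CoA into peroxisomes, had a log2 fold change of -1.01 (edgeR adjusted p = 0.0426). With 1 mouse omitted at a time, *Abcd3* was called 2 times of 7 and *Soat1* 7 of 7. Their log2 fold changes were -1.50 and -1.32 without hep-/- replicate 3. Flox/flox replicate 3, with the highest *Soat1*, also had the highest macrophage sum, and without it the log2 fold change of *Soat1* was -0.92, still called. The part of macrophages in the *Soat1* difference was not tested.

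Genes that work next to ACSL4, in making polyunsaturated fatty acids, placing them in phospholipids or oxidizing them there, gave a single call. Of 21 tested, 1 fell and none rose, 4.76% beside 15.8% of all genes, and 8, or 38.1%, had an unadjusted p under 0.05, beside 32.9% of all genes. The one was *Fads2*, the Δ6-desaturase that begins the synthesis of polyunsaturated fatty acids, at 1250, 1550, 953 and 1163 CPM in flox/flox replicates 1 to 4 and 568, 407 and 744 CPM in hep-/- replicates 1 to 3 (log2 fold change -1.10, edgeR adjusted p = 0.0202). It stayed called under 5 of the 7 omissions, with a log2 fold change of -1.34 without hep-/- replicate 3. *Lpcat3*, which puts arachidonoyl-CoA into phospholipids, had 102 ± 12.8 CPM (SD, n = 4) and 75.9 ± 6.33 CPM (SD, n = 3), and its log2 fold change of -0.42 (interval -0.82 to -0.02) did not pass (edgeR adjusted p = 0.131). *Gpx4*, which reduces lipid peroxides, had overlapping groups and a log2 fold change of -0.38 (interval -0.92 to 0.16, edgeR adjusted p = 0.313). The log2 fold changes of *Lpcat3* and *Gpx4* were -0.50 and -0.56 without hep-/- replicate 3, neither called. DESeq2 called 3 genes of this list, 1 lower and 2 higher, 13.6% beside 14.2% of all genes in that test.

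Of 8 tested genes of PPAR receptors and their partners, 2 fell and none rose, 25% beside 15.8% of all genes. They were *Pparg* and its partner *Rxra*, the retinoid X receptor with which PPARs bind DNA. *Rxra* had 383, 305, 294 and 321 CPM in flox/flox replicates 1 to 4 and 151, 128 and 162 CPM in hep-/- replicates 1 to 3, with a wide gap between the groups (log2 fold change -1.15, edgeR adjusted p = 0.00605). *Pparg* had 16.6, 28.7, 17.4 and 23.3 CPM and 13.3, 8.41 and 12.2 CPM in the same order (log2 fold change -0.92, edgeR adjusted p = 0.0311). *Rxra* stayed called under all 7 omissions and *Pparg* under 3, and without hep-/- replicate 3 the log2 fold change of *Pparg* was -0.99 (edgeR adjusted p = 0.0557). *Ppara* at -0.19 (interval -0.61 to 0.23) and *Ppard* at 0.35 (interval -0.21 to 0.91) did not pass, and neither did the rest of the list. These are mRNA levels, and protein was not measured in these files.

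Of 25 listed PPARα targets, all tested, 5 fell and none rose, 20% beside 15.8% of all genes. Higher genes were called under other settings. They were 3 of 25 with voom, beside 1541 of 15179 genes called higher, and 1 of 25 with DESeq2, beside 1699 of 22934. Either other count filter also gave 1, beside 1459 of 22960 genes (at least 1 count) and 1196 of 13374 (at least 10). Leaving out flox/flox replicate 3, hep-/- replicate 2 or hep-/- replicate 3 gave 1 each, beside 698 of 15015, 606 of 15450 and 982 of 15639. The list gave 1 call without flox/flox replicate 2, 4% beside 5.9% of all genes. Among those called, *Ehhadh*, an enzyme of peroxisomal oxidation, had the largest decrease at -1.66 (edgeR adjusted p = 0.00572), followed by the lipid droplet coat gene *Plin2* at -1.06 (edgeR adjusted p = 0.0210) and the mitochondrial import enzyme *Cpt1a* at -0.87 (edgeR adjusted p = 0.0254), all log2 fold changes. Under the 7 omissions *Ehhadh* stayed called each time, *Plin2* 5 times and *Cpt1a* 4 times. Of 10 tested PPARγ targets 1 fell and 1 rose, 20% beside 15.8% of all genes. The fatty acid translocase *Cd36*, a gene of macrophages as well as of hepatocytes, had a log2 fold change of -1.32 (edgeR adjusted p = 0.0112), and the droplet coat gene *Plin4* had 0.92 (edgeR adjusted p = 0.0303), still called under 3 of the 7 omissions. *Cd36* was highest, at 722 CPM, in flox/flox replicate 3, the liver with the highest macrophage sum, and the part of macrophages in its difference was not tested. Without hep-/- replicate 3 the log2 fold changes were -1.82 for *Ehhadh*, -1.31 for *Plin2*, -1.04 for *Cpt1a* and -1.41 for *Cd36*, all still called, and 0.88 for *Plin4*, which was not.

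**Figure D5:**
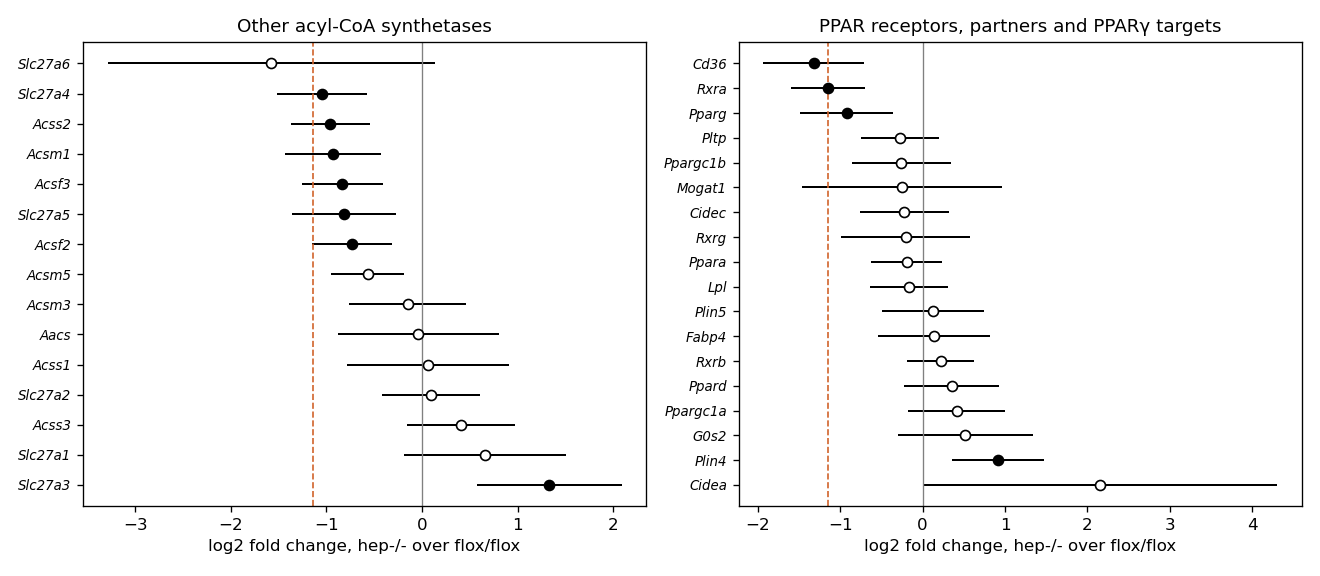
Log2 fold change of hep-/- over flox/flox livers (horizontal axes) with 95% intervals from edgeR for 15 other acyl-CoA synthetases (left) and for PPAR receptors, their partners and PPARγ targets (right), filled where called; the dashed line marks *Acsl4* at -1.14. On the left 6 filled points lie below 0 and 1 above, and on the right *Rxra*, *Pparg* and *Cd36* are filled below 0 and *Plin4* above.

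The genes whose level followed each member most closely over the 7 livers were found by Pearson's r of log2 CPM among 7492 well-expressed genes. The likeness includes the difference between the groups, and so describes these livers. For *Acsl4* they were *Tmem9b* (r = 0.996), the peroxisomal protease gene *Lonp2* (r = 0.995) and *Cops7a* (r = 0.993), all called lower; under the 7 omissions *Lonp2* stayed called each time, *Tmem9b* 2 times and *Cops7a* 1 time. With the group means removed, r was 0.996, 0.997 and 0.974. These genes were chosen by r in the same 7 livers, so this is no separate test. *Lonp2* was at 243 ± 28.5 CPM in the 4 flox/flox and 113 ± 31.3 CPM in the 3 hep-/- livers (mean ± SD), a log2 fold change of -1.11 close to that of *Acsl4*. For *Acsl5* they were *Eif2b5*, the protein disulfide isomerase gene *P4hb* and *AI182371* (r = 0.990 to 0.996). For *Acsl1* they were *Antxr2*, *Rab8a* and *Plcxd2* (r = 0.985 to 0.994). *Acsl3* was followed less closely, by *Rad51b*, *Thrb* and *Dennd4a* (r = 0.941 to 0.948), and *Acsbg1* by *Bap1*, *Syvn1* and *Rnf111* (r = 0.941 to 0.965). No gene was shared between these lists of 3.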

How the data were processed

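RNA-seq of 7 livers was analysed, 4 *B4galt1* flox/flox and 3 *B4galt1* hep-/-. The authors deposited a table of counts per gene and mouse without normalization, and FPKM values, which equalled the count divided by a fixed length per gene and by the library total. The submitters' processing notes name fastp, HISAT2, HTSeq and GRCm39; the annotation and strand setting are not given in the sources used here. Promoters are RefSeq windows of GRCm38.p6, so no position is shared with the counts. No column of sample values was left unused.

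Genes kept by filterByExpr (minimum count 10, minimum total 15), 15179 of 23347, entered the quasi-likelihood test of edgeR 4.0.16 (R 4.3.3) after TMM scaling, with the group as sole term and Benjamini-Hochberg adjustment over all of them. The study used DESeq2 with the same thresholds. Intervals are at 95%. Levels per kilobase use the gene length implied by the FPKM values. Exact permutation tests counted all splits of 4 against 3 mice with scipy 1.17.1. A count of 0 was taken to allow 3 counts. The alternatives were DESeq2 1.42.0, limma 3.58.1 applied to log2(FPKM + 1) or to log2(FPKM + 0.1), voom with sample quality weights, which also reweights the libraries, other normalizations and filters, the replicate number as a block, and each mouse left out. edgeR was tested on simulated data first. The members, the gene lists, the tests and the alternatives were chosen with earlier results of these data known. Named were all members, *Ppara*, *Ppard*, *Pparg*, *Rxra*, *Lpcat3* and *Gpx4*, the 3 largest called changes of each list, and the 3 genes most like each member among those at or above the median level, leaving out predicted genes and other members; 1 gene that this rule names is not reported here. The 21 pairs of libraries all differed by more than sampling noise, and that each is a separate mouse rests on the labels.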

Additional observations from a re-analysis of the deposited data

Results flagged for a closer look

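Among 38 measures in the 4 flox/flox livers, 2 had a single liver far from the other three, about as many as chance gives, which is about 1 in 20. *Soat1* was at 58.8 CPM in replicate 3, where the others ran from 27.2 to 28.7 CPM, and the same liver had the highest macrophage marker sum. The summed neutrophil markers were at 37.5 CPM in replicate 4, where the others ran from 25.4 to 27.3 CPM.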

How the results depend on the processing

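*Acsl4* was called lower under all 19 alternatives, with log2 fold changes from -1.40 to -0.89, the latter without hep-/- replicate 2; its adjusted p was nearest the threshold, 0.0494, without flox/flox replicate 2. *Acsl3* was never called. *Acsl1* was called on log2(FPKM + 1) with and without the filter (-0.73) and log2(FPKM + 0.1) (-0.74). FPKM values are not TMM-scaled, and the median log2 fold change of all genes was -0.14 on filtered log2(FPKM + 1) and -0.18 on log2(FPKM + 0.1). It was -0.003 on unfiltered log2(FPKM + 1), beside 0.02 with edgeR. *Acsl5* was called on the same scales (-0.92, -0.93 and -0.92), with voom and sample quality weights (-0.89), with DESeq2 (-0.76), and with a filter of at least 1 count in any mouse (-0.78). *Acsbg1* was called with DESeq2 (1.53), voom (1.97) and at least 10 counts in every mouse (1.53), and its log2 fold change shrank to 0.30 on unfiltered log2(FPKM + 1), where the pseudocount exceeds its level. Leaving out a mouse gave -0.78 to -0.40 for *Acsl1*, 0.16 to 0.54 for *Acsl3*, -1.40 to -0.89 for *Acsl4*, -1.10 to -0.57 for *Acsl5* and 1.122 to 1.87 for *Acsbg1*. The members called then numbered 1 or 2 of 5, 20% or 40%, beside 5.9% to 16.1% of all genes. They were 2 with either count filter, 33.3% beside 12.3% of all genes (at least 1 count) and 40% beside 17.8% (at least 10). DESeq2 called 3, 50% beside 14.2%, and voom 3, 60% beside 19.7%. FPKM values also gave 3. That was 75% beside 21% on filtered log2(FPKM + 1), 75% beside 23.3% on log2(FPKM + 0.1) and 50% beside 5.79% on unfiltered log2(FPKM + 1).

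Called genes over the whole table were 2404, between 885 and 2396 with a mouse left out (885 without flox/flox replicate 2, 1405 without replicate 3, 1552 without replicate 4 and 1199 without hep-/- replicate 2), 1330 on unfiltered log2(FPKM + 1) and 3261 with DESeq2. On filtered log2(FPKM + 1) 561 were higher and 1733 lower, beside 1215 and 1189 with edgeR. The lists of related genes held 22 called genes, 20.2% beside 15.8% of all genes. With a mouse left out they held between 7, 6.54% beside 5.9%, and 23, 21.3% beside 16.1%. By list, the calls ran from 2 to 8 for other synthetases, 0 to 2 for thioesterases, 2 to 9 for users of acyl-CoA, 0 to 3 for the polyunsaturated fatty acid genes, 1 to 2 for receptors, 1 to 8 for PPARα targets and 1 to 2 for PPARγ targets. Over the same alternatives the share of all genes called ran from 5.79% to 23.3%, so these ranges are no result about the lists. *Dennd4a*, at 0.065, turned to -0.041 on log2(FPKM + 1), filtered or not, to -0.056 on log2(FPKM + 0.1) and to -0.014 without hep-/- replicate 1 (-0.014 to 0.116 with a mouse left out); the cause was not tested.

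With a mouse left out, the ratio of *Acsl4* differed between the groups by -0.79 to -0.47 against *Acsl1*, -1.997 to -1.31 against *Acsl3*, -0.54 to -0.29 against *Acsl5* and -3.13 to -2.45 against *Acsbg1*. A split of 6 mice cannot pass the threshold. On log2(FPKM + 1) the differences were -0.50, -1.45, -0.31 and -1.52 and none passed after adjustment.

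Replicate numbers are shared by the groups but mark different animals. The deviations of same-numbered mice correlated at -0.34, -0.03 and 0.08, so the numbers did not pair them. With the replicate block 1267 genes were called over the whole table, 8.35%, and 7 in the lists, 6.42%. The ratio differences within numbers were -0.62 against *Acsl1*, -1.68 against *Acsl3* and -2.75 against *Acsbg1*, where 3 pairs cannot give an exact p below 0.25. *Acsl4* remained called.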
